A study of Bos indicus with 5 samples.

Results

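The Toll-like receptors (TLRs) of the cow are a family of 10 genes, TLR1 to TLR10, and 8 of them (TLR2, TLR3, TLR4, TLR5, TLR6, TLR7, TLR9 and TLR10) were read in the ampulla, the wide segment of the oviduct where fertilization takes place. The family was chosen with earlier results of these data known, and its members were then found by gene symbol. Each of the 8 matched 1 row among the 24616 genes of the table. TLR1 and TLR8 were not analysed here. The samples were ampullae of multiparous Nelore (Bos indicus) cows, collected on day 4 after a GnRH injection that induced ovulation, 1 library for each cow. In LF/LCL (n = 2), named for a large follicle and a large corpus luteum, the progesterone device came out 42 h before GnRH and a PGF injection was also given when the device was inserted on day -10. In SF/SCL (n = 3), named for the small follicle and the small corpus luteum, the device came out 30 h before GnRH and no PGF was given on day -10. All cows had been pre-synchronized before with a GnRH agonist and then PGF. All received the device (1 g progesterone) with 2 mg estradiol benzoate, PGF at device removal and again 6 h later, and the GnRH that induced ovulation. The sequenced cows were the highest ranked of LF/LCL and the lowest ranked of SF/SCL for follicle, corpus luteum and hormone measures, so they stand for the ends of each group, and the authors discarded a further LF/LCL library for poor quality.

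TLRs are membrane proteins that bind molecules typical of microbes and start an inflammatory response. TLR2 (in pairs with TLR1 or TLR6), TLR4 and TLR5 sit on the cell surface and recognise bacterial lipopeptides, lipopolysaccharide and flagellin, while TLR3, TLR7, TLR8 and TLR9 sit in endosomes and recognise nucleic acids. All of them except TLR3 can signal through the adaptor MYD88 and the kinase IRAK4 to NF-kB, and TLR3 and TLR4 use the adaptor TICAM1. In the oviduct these receptors are known from the epithelium and from resident immune cells, in a tissue that meets sperm, the embryo and microbes.

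The table holds read counts divided by 1 size factor per library, called normalized read counts below. The libraries held from 13418278 to 19592174 reads assigned to genes. The tissue was the whole wall of the ampulla, and markers of its main cell types were present. Secretory epithelium markers summed to between 151000 and 180200 normalized reads per library and ciliated epithelium markers to between 39840 and 62030. On the first principal component the LF/LCL libraries lay at -42.4 and -40.6, SF/SCL replicates 1 and 2 at 12.1 and 11.4, and SF/SCL replicate 3 further out at 59.5.

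The TLR genes together held between 0.0107% and 0.0161% of the reads of a library. Reads summed over the 5 libraries numbered 3421 for TLR4, 2307 for TLR3, 1454 for TLR5, 969 for TLR6, 859 for TLR7, 565 for TLR2, 54 for TLR9 and 45 for TLR10. These sums set the precision of each gene and are not an order of transcript levels, because the values are not divided by transcript length and no transcript lengths were used here. In the mean normalized count the order was TLR4, TLR3, TLR5, TLR6, TLR7, TLR2, TLR9, TLR10. Of the 7 neighbouring pairs in that order, TLR3 over TLR5 and TLR2 over TLR9 kept their order in 5 of 5 libraries, and TLR6 over TLR7 and TLR9 over TLR10 in 2 of 5. TLR10, TLR6 and TLR1 lie side by side in a Bos indicus gene table and are close relatives, with TLR1 inside the span of TLR6. Only uniquely and unambiguously mapped reads were counted, so the values of TLR6 and TLR10 may have lost reads to overlap or to near-identical sequence.

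The comparison between the groups asked whether TLR transcripts differed with the size of the ovulated follicle. TLR2, TLR3, TLR4 and TLR6 had higher values in both LF/LCL cows than in all 3 SF/SCL cows, with ratios of the group means from 1.18 (TLR6) to 1.68 (TLR2). For TLR5, TLR7, TLR9 and TLR10 the groups overlapped, and the LF/LCL cows lay on either side of the SF/SCL mean. With limma, 0 of the 8 TLR genes had a Benjamini-Hochberg adjusted p under 0.05, against 0.0% of the 15815 genes tested. Their smallest adjusted p was 0.362 (TLR4). At an unadjusted p under 0.05 there were 3 TLR genes, TLR2, TLR3 and TLR4, all higher in LF/LCL, where 5.64% of all genes tested had such a p in that direction and 5.86% in the other. Groups that did not overlap with LF/LCL higher were found in 4 of 8 TLR genes and in 15% of all genes tested, and with SF/SCL higher in 0 of 8 and 15.1%, which makes 30.1% of all genes in either direction. The median log2 fold change (LF/LCL over SF/SCL) was 0.33 over the 8 TLR genes and 0.01 over all genes tested. The edgeR quasi-likelihood test and DESeq2 on the recovered reads also called 0 TLR genes over all genes tested and gave the same 3 genes at an unadjusted p under 0.05, where edgeR called 0.0% of all genes after adjustment and 11.6% before it, and DESeq2 2.89% and 12.7%. In bulk tissue fewer cells of a type and less RNA per cell cannot be told apart.

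**Figure D1:**
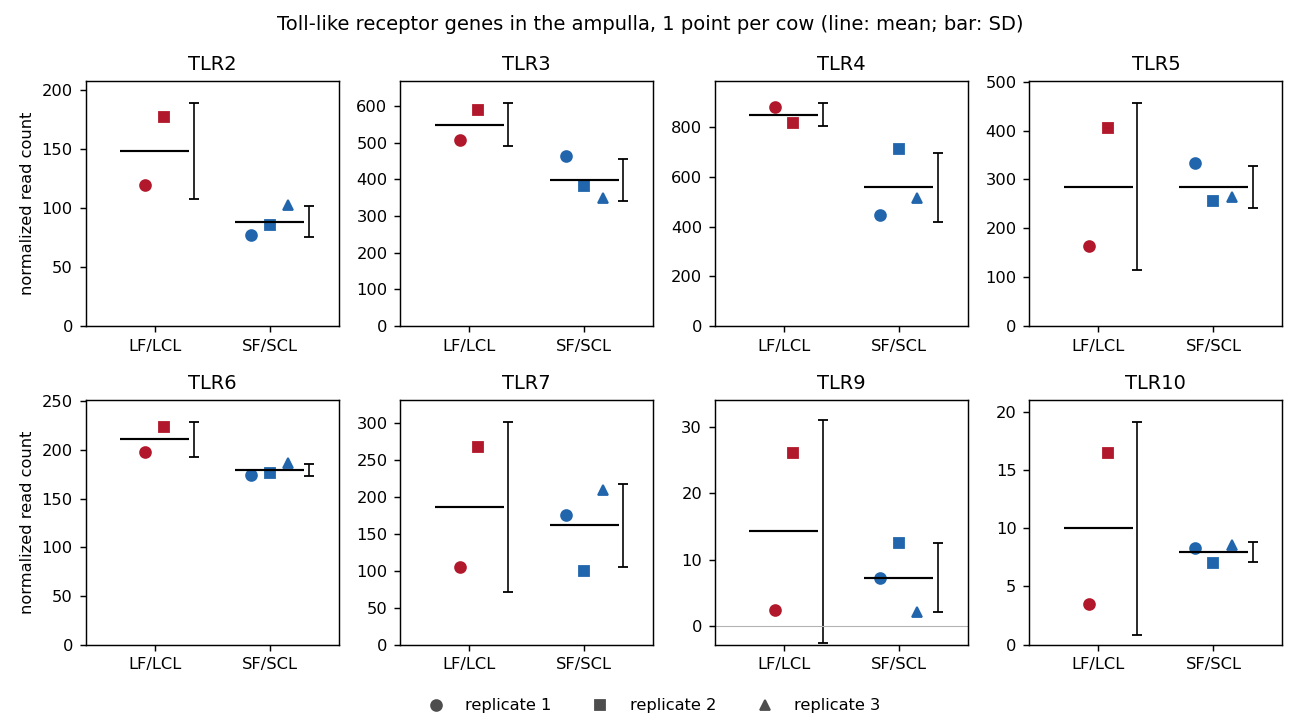
Normalized read count (vertical axis, different for each panel) of 8 Toll-like receptor genes in LF/LCL (2 cows) and SF/SCL (3 cows); points are single libraries, horizontal lines are group means and vertical bars show the SD. Both LF/LCL points lie above the SF/SCL points for TLR2, TLR3, TLR4 and TLR6, and the LF/LCL points lie far apart for TLR5, TLR7, TLR9 and TLR10.

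Among the surface receptors, TLR4, the receptor for bacterial lipopolysaccharide, had 881.9 normalized reads in LF/LCL replicate 1 and 816.0 in replicate 2, against 445.0, 712.7 and 516.2 in SF/SCL replicates 1, 2 and 3. The LF/LCL cows were close to each other, and the nearest SF/SCL cow was replicate 2. The log2 fold change was 0.63 ± 0.21 (SE), with a 95% interval from 0.12 to 1.15, an unadjusted p of 0.0235 and a limma adjusted p of 0.362. TLR4 binds its ligand only together with MD2 (LY96), and CD14 passes the ligand to this pair. MD2 had 368.3 and 274.9 normalized reads in LF/LCL against 173.6, 293.0 and 244.7 in SF/SCL, and its groups overlapped. For MD2 the log2 fold change was 0.46 ± 0.27 (limma adjusted p = 0.575). CD14 had 138.4 and 97.8 in LF/LCL against 154.9, 101.0 and 262.9 in SF/SCL, with its highest value in SF/SCL replicate 3. Its log2 fold change was -0.46 ± 0.43 (limma adjusted p = 0.735). Within each library the ratio of TLR4 to MD2 values ran only from 2.11 to 2.97, whereas the ratio of TLR4 to CD14 ran from 1.96 (SF/SCL replicate 3) to 8.35 (LF/LCL replicate 2).

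TLR2, which recognises bacterial lipopeptides, had 119.6 and 177.1 normalized reads in LF/LCL against 76.9, 85.5 and 103.0 in SF/SCL. All SF/SCL values were below both LF/LCL values. The log2 fold change was 0.72 ± 0.29 (SE), with a 95% interval from 0.02 to 1.42, an unadjusted p of 0.0449 and a limma adjusted p of 0.422. TLR6, a partner of TLR2, had 198.2 and 223.6 in LF/LCL against 174.7, 176.4 and 186.7 in SF/SCL. Here too both LF/LCL values were above all SF/SCL values, by a small difference, with a log2 fold change of 0.23 ± 0.18 (limma adjusted p = 0.673). The SF/SCL cows spread by an SD of 6.52 around a TLR6 mean of 179.3, where counting alone gives an SD of 13.1, so that no spread between these cows beyond counting was seen. The ratio of TLR2 to TLR6 values within a library was 0.604 and 0.792 in LF/LCL against 0.440, 0.485 and 0.552 in SF/SCL. It did not overlap, but it holds the TLR2 values, which were already without overlap. TLR10, a relative of TLR6, had 3 and 17 reads in LF/LCL against 8, 9 and 8 reads in SF/SCL. Its LF/LCL cows lay on both sides of the SF/SCL cows, with an SD of 9.15 normalized reads between them where counting alone gives 3.27. The log2 fold change was -0.01 with a 95% interval from -1.86 to 1.84 (limma adjusted p = 0.998).

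TLR5, the receptor for bacterial flagellin, had 164.2 and 405.6 normalized reads in LF/LCL against 333.7, 254.9 and 264.0 in SF/SCL. The LF/LCL cows held both the lowest and the highest value of the 5. The group means were 284.9 ± 171.0 (SD, n = 2) and 284.2 ± 43.1 (SD, n = 3). The log2 fold change was -0.13 ± 0.39 (limma adjusted p = 0.935).

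Among the endosomal receptors, TLR3, which binds double-stranded RNA, had 507.8 and 590.4 normalized reads in LF/LCL against 462.7, 383.1 and 349.9 in SF/SCL. Both LF/LCL values were above all SF/SCL values, of which replicate 1 was the nearest. The log2 fold change was 0.47 ± 0.17 (SE), with a 95% interval from 0.06 to 0.88, an unadjusted p of 0.0318 and a limma adjusted p of 0.387. TLR7, which binds single-stranded RNA, had 105.5 and 268.1 in LF/LCL against 175.7, 99.5 and 209.3 in SF/SCL. Here LF/LCL replicate 1 and SF/SCL replicate 2 were low and LF/LCL replicate 2 was high, and the log2 fold change was 0.13 ± 0.50 (limma adjusted p = 0.952). TLR9, which binds unmethylated CpG DNA, had 2 and 27 reads in LF/LCL against 7, 16 and 2 reads in SF/SCL. The exact 95% Poisson interval of these reads, which covers counting error only, was 0.242 to 7.22 for LF/LCL replicate 1 and 17.8 to 39.3 for LF/LCL replicate 2, so that these cows of the same group differed beyond counting. For TLR9 the log2 fold change was 0.44 with a 95% interval from -2.30 to 3.17 (limma adjusted p = 0.920). UNC93B1, the chaperone that carries the endosomal TLRs out of the endoplasmic reticulum, had 928.8 and 888.6 normalized reads in LF/LCL against 948.2, 755.4 and 1194 in SF/SCL. Its log2 fold change was -0.06 ± 0.20 (limma adjusted p = 0.936), and the ratio of TLR3 to UNC93B1 values (0.547 and 0.664 in LF/LCL, 0.488, 0.507 and 0.293 in SF/SCL) did not overlap between the groups. Those of TLR7 and TLR9 to UNC93B1 did. Counted together, 10 of the 12 ratios computed among TLR genes and their partners overlapped, all but TLR3 to UNC93B1 and TLR2 to TLR6. The values of TLR3 and TLR2 were themselves without overlap, so these 2 ratios are no separate support. Of all genes tested, 30.1% did not overlap in either direction.

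**Figure D2:**
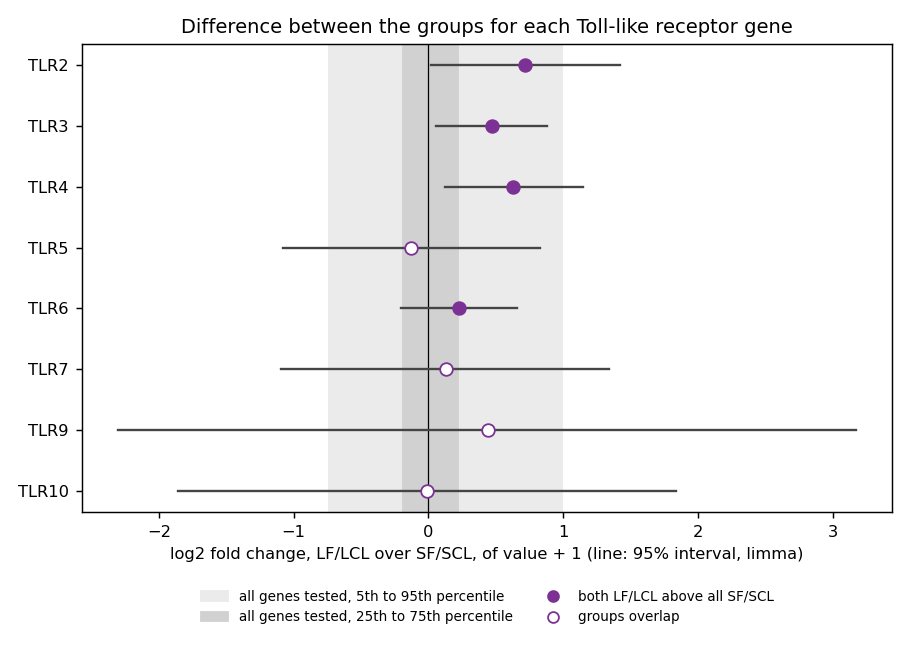
Log2 fold change of LF/LCL over SF/SCL (horizontal axis, on the log2(value + 1) scale) for each Toll-like receptor gene with its 95% limma interval; filled points are genes whose groups did not overlap, and the grey bands hold the middle 50% and 90% of all genes tested. TLR2, TLR3 and TLR4 have intervals above 0 before adjustment, and those of TLR9 and TLR10 are the widest.

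These differences rested on few cows. With each library left out in turn, the log2 fold change ran from 0.44 to 1.00 for TLR2, from 0.36 to 0.58 for TLR3, from 0.48 to 0.82 for TLR4 and from 0.14 to 0.32 for TLR6. The unadjusted p stayed under 0.05 for TLR2 and TLR3 without LF/LCL replicate 1, for TLR3 without SF/SCL replicate 1, for TLR4 without SF/SCL replicate 2 and for TLR2 without SF/SCL replicate 3. Without LF/LCL replicate 2 none of these genes kept it, and TLR5 had an unadjusted p of 0.0289 with a log2 fold change of -0.78.

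A second pattern lay within LF/LCL. Replicate 2 had 2.47 times the TLR5 value of replicate 1, 2.54 times for TLR7, 4.68 times for TLR10 and 11.1 times for TLR9, but 1.48 times for TLR2, 1.16 times for TLR3, 1.13 times for TLR6 and 0.925 times for TLR4. Thus 4 of 8 TLR genes were at least 2 times as high in replicate 2, against 6.35% of all genes tested. Of the 6 TLR genes with a mean value of at least 50, 2 were (TLR5 and TLR7), against 2.85% of all such genes. TLR9 (2 and 27 reads) and TLR10 (3 and 17 reads) had few reads in LF/LCL. This comparison within LF/LCL was not planned, and its libraries, direction and cut were set with the values known, so its counts are a description. The genes that overlapped between the groups were those that differed most between the LF/LCL cows. Both measures use the same 2 LF/LCL values, and values far apart can hardly both lie above all SF/SCL values. This match is therefore nearly built in. Other innate immune genes were also highest in LF/LCL replicate 2, and those given here were picked after their values were seen. IRF7, the interferon regulator downstream of TLR7 and TLR9, had 2364 normalized reads there, 770.5 in LF/LCL replicate 1 and from 680.8 to 1130 in SF/SCL. CD180, a TLR-like receptor of B cells and macrophages, had 35.8 there and from 2.35 to 10.1 in the other 4 libraries.

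Markers of immune cells also varied between the cows. The macrophage and monocyte markers (11 of 12 listed genes in the table, 10 tested) summed to 2545 and 7025 normalized reads in LF/LCL and to 4813, 2148 and 4029 in SF/SCL. Of the 10 tested, 7 were higher in LF/LCL, 0 had an unadjusted p under 0.05, and no listed marker with a row was at 0 in every library. SF/SCL replicate 2 and LF/LCL replicate 1 had the lowest macrophage sums and also the lowest TLR7 values, and LF/LCL replicate 2 had the highest of both. This pairing of TLR7 with the macrophage list was not planned and was made with the values known. From LF/LCL replicate 1 to replicate 2, 7 of the 11 markers had a higher value, among them CD68 with 62.2 and 62.9. The other 4 were lower in replicate 2, with CD14 at 138.4 and 97.8, CD163 at 56.3 and 29.0, ITGAM at 64.5 and 37.8 and MARCO at 1.17 and 0. Named after their values were seen, as were the markers just given, the complement genes C1QA, C1QB and C1QC carried much of this sum, with 1287, 2011 and 1763 normalized reads in LF/LCL replicate 2 and 417.5, 500.8 and 384.7 in LF/LCL replicate 1. The B and plasma cell markers summed to 4237 and 3787 in LF/LCL and ranged from 1449 to 6789 in SF/SCL, mostly from the plasma cell gene IGJ, and PAX5 was at 0 in every library. The B cell gene MS4A1, also named after its values were seen, had 11.6 in LF/LCL replicate 2 and from 0 to 4.16 in the other 4 libraries. The dendritic cell markers, with CD207 at 0, summed to 327.2 and 498.5 in LF/LCL and to 462.7, 216.1 and 503.3 in SF/SCL. Their sums were thus also lowest in the 2 libraries with the lowest TLR7 values, so that low TLR7 did not go with the macrophage list alone. The part of these cells in the TLR values was not tested.

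Other cell type markers moved with the groups as TLR2, TLR3 and TLR4 did, or against them. The T and NK cell markers summed to 1121 and 1435 in LF/LCL and ranged from 678.9 to 795.0 in SF/SCL. All 10 tested were higher in LF/LCL, 8 of them without overlap (15% of all genes tested) and 4 with an unadjusted p under 0.05 (5.64% of all genes tested). The neutrophil markers summed to 536.0 and 797.6 in LF/LCL cows and ranged from 268.1 to 461.6 in SF/SCL cows. Of their 8 entries 4 were tested, and all 4 were higher in LF/LCL. Among these, 3 were without overlap and 2 had p under 0.05 before adjustment, against 15% and 5.64% of all genes tested. S100A8, named after its values were seen, passed the filter on the mean value only through LF/LCL. It had 38.7 and 29.0 in LF/LCL against 1.04, 0 and 2.15 in SF/SCL, so its lack of overlap was favoured by the filter. Most of the sum came from S100A12 and FCGR3A, named after their values were seen. FCGR3A overlapped, with 234.6 and 507.2 in LF/LCL against 385.7, 157.8 and 258.6 in SF/SCL. S100A12 did not, with 243.9 and 241.0 against 59.3, 103.4 and 86.9. CSF3R, MPO and both CXCR2 entries were not tested and had at most 7.74 in any library. The smooth muscle markers summed to 116900 and 60140 in LF/LCL and ranged from 14600 to 39930 in SF/SCL. Here 7 of 7 tested were higher in LF/LCL without overlap (15% of all genes tested), all 7 with an unadjusted p under 0.05 (5.64% of all genes tested). The ciliated epithelium markers summed to 39840 and 50480 in LF/LCL and ranged from 60120 to 62030 in SF/SCL, with 9 of 9 tested lower in LF/LCL, 8 without overlap (15.1% of all genes tested) and 8 with an unadjusted p under 0.05 (5.86% of all genes tested). The sums of the secretory, endothelial and stromal fibroblast markers overlapped between the groups, as did those of the blood markers, where ALAS2 and PPBP were at 0. Most of the secretory sum was OVGP1, with 142100 of 179000 in LF/LCL replicate 1. Among the 9 secretory markers tested, 5 were higher and 4 lower in LF/LCL. PAX8, KRT7, KRT8 and EPCAM were higher without overlap (15% of all genes tested), and 3 of the higher markers reached an unadjusted p under 0.05 (5.64% of all genes tested). OVGP1 overlapped, with 142100 and 117200 in LF/LCL against 122200, 147200 and 137400 in SF/SCL. These genes of the secretory list were named after their values were seen, and a shift of secretory cells was not tested. None of the markers had a limma adjusted p under 0.05, and the part of these cells in the TLR values was not tested.

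**Figure D3:**
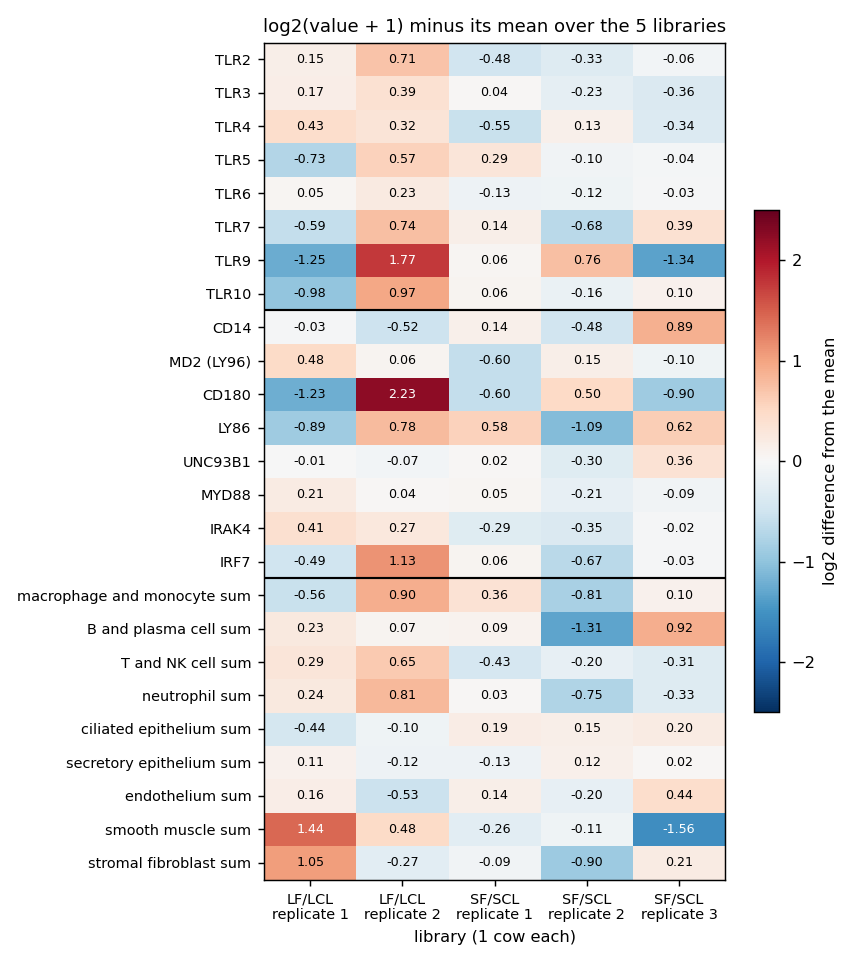
Difference of log2(value + 1) from its mean over the 5 libraries (colour and printed number) for the 8 Toll-like receptor genes, for 8 partner and signalling genes of which CD180, LY86 and IRF7 were picked after their values were seen, and for the sums of 9 cell marker lists; columns are libraries. LF/LCL replicate 2 is above the mean for every Toll-like receptor gene. TLR7 is low in the same 2 libraries as LY86, the macrophage marker sum and the dendritic cell marker sum, which is not shown.

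The other genes of the pathway and other innate sensors were read from 7 lists. Of 107 symbols on these lists, 97 entries were in the table and 86 were tested, and 0 had a limma adjusted p under 0.05. An unadjusted p under 0.05 was found for 5 higher and 3 lower in LF/LCL, where 11.5% of all genes tested had one in either direction. Their median log2 fold change was 0.08. DESeq2 called 3 of the 86, CXCL10, SAA3 and IL6 (ENSBTAG00000014921), and 2.89% of all genes tested.

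All 5 adaptors were tested, 4 were higher in LF/LCL, 0 had an unadjusted p under 0.05 and the median log2 fold change was 0.20. MYD88, which serves every TLR except TLR3, had 1046 and 929.2 normalized reads in LF/LCL against 939.9, 785.7 and 853.2 in SF/SCL cows, and its log2 fold change was 0.20 ± 0.13 (limma adjusted p = 0.593). TICAM1, the adaptor of TLR3, had a log2 fold change of 0.01 with a 95% interval from -0.53 to 0.54. TICAM2, which bridges TLR4 to TICAM1, had -0.47 ± 0.23 and SARM1, an inhibitory adaptor, 0.65 ± 0.55.

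Of the 12 accessory proteins 11 were tested, 5 higher and 6 lower in LF/LCL, with a median log2 fold change of -0.06. LBP, which delivers lipopolysaccharide to CD14, had 2 reads in LF/LCL replicate 1 and 0 in the other 4 libraries and was not tested. HSP90B1, a chaperone needed for the folding of most TLRs, had the only unadjusted p under 0.05 (0.0339), with 10880 and 11630 normalized reads in LF/LCL against 12830, 14070 and 14950 in SF/SCL. It was thus lower where TLR2, TLR3 and TLR4 were higher, by a log2 fold change of -0.31 ± 0.11 (limma adjusted p = 0.395). HMGB1, a nuclear protein that can act as a TLR ligand when released, had 0.25 ± 0.13.

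Of the 17 kinases and ubiquitin ligases tested, 10 were higher and 7 lower in LF/LCL, with a median of 0.03. IRAK4, the first kinase recruited by MYD88, had 751.7 and 681.4 normalized reads in LF/LCL against 461.6, 443.0 and 558.1 in SF/SCL, without overlap. Its log2 fold change was 0.56 ± 0.15 (unadjusted p = 0.00864, limma adjusted p = 0.306). TRAF3, a ligase on the TICAM1 branch, had 240.4 and 303.0 in LF/LCL against 363.9, 391.7 and 331.6 in SF/SCL cows, which is a log2 fold change of -0.42 ± 0.17 (limma adjusted p = 0.429). PELI2 had 77.4 in LF/LCL replicate 1 and from 20.4 to 26.4 in the other 4 libraries, so that its log2 fold change of 0.92 ± 0.55 came from 1 cow.

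None of the 14 transcription factors and inhibitors tested, nor of the 12 negative regulators, had an unadjusted p under 0.05. Their median log2 fold changes were 0.06 and 0.08. The transcription factors with the smallest p were JUN (0.30 ± 0.17), IRF1 (-0.22 ± 0.16) and REL (-0.31 ± 0.28), and the negative regulators were TRAFD1 (0.18 ± 0.12), ATF3 (0.39 ± 0.28) and TOLLIP (0.12 ± 0.10). The NF-kB subunit RELA had 0.14 with a 95% interval from -0.17 to 0.46, and the feedback inhibitor TNFAIP3 had 0.34 with one from -0.41 to 1.08.

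The inflammatory target genes went in both directions and many had few reads. Of 23 entries, 13 were tested, since the other 10 had a mean value of 5 or less. Of the 13, 9 were higher in LF/LCL, 3 of these with an unadjusted p under 0.05, and 1 of the 4 lower ones had one, against 5.64% and 5.86% of all genes tested in these directions. Some genes passed the filter on the mean value only through the group where they were high. IL1B and CCL4 had means of 3.37 and 4.21 in SF/SCL, and IL6 (ENSBTAG00000014921) had a mean of 3.70 in LF/LCL. The counts and the median of this list are therefore partly set by the filter and are no support for a difference. CXCL10, a chemokine that attracts T cells, had 423.4 and 598.2 normalized reads in LF/LCL against 190.3, 295.3 and 192.1 in SF/SCL. Its log2 fold change was 1.18 ± 0.27 (unadjusted p = 0.00411, limma adjusted p = 0.253, DESeq2 adjusted p = 0.0119). SAA3, an acute phase protein, had 18760 and 15530 in LF/LCL against 10760, 6398 and 10160 in SF/SCL cows, which is a log2 fold change of 0.94 ± 0.25 (limma adjusted p = 0.306, DESeq2 adjusted p = 0.0231). These were without overlap, as was the cytokine gene IL6 (ENSBTAG00000014921) in the opposite direction, with 3.52 and 3.87 in LF/LCL against 10.4, 69.2 and 33.3 in SF/SCL. For this IL6 entry the log2 fold change was -2.68 ± 0.84 (limma adjusted p = 0.345, DESeq2 adjusted p = 0.0499). A second IL6 entry (ENSBTAG00000046456) had at most 7.28 and was not tested, and entries that share a symbol are uncertain. IL1B, named after its values were seen, had 14.1 and 17.4 in LF/LCL against 1.04, 1.55 and 7.51 in SF/SCL (limma adjusted p = 0.414), and TNF had from 5.37 to 15.5 over the 5 libraries.

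**Figure D4:**
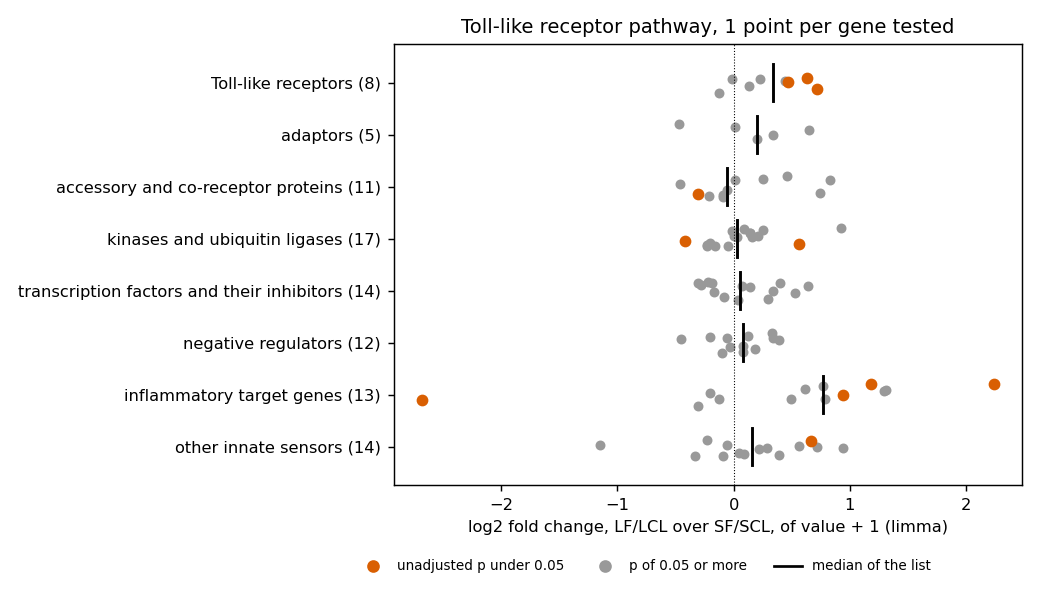
Log2 fold change of LF/LCL over SF/SCL (horizontal axis, on the log2(value + 1) scale) for each tested gene of the Toll-like receptor family and of 7 pathway lists, with the number tested in brackets; orange points have an unadjusted p under 0.05 and black lines are list medians. The medians are 0.33 for the receptors, between -0.06 and 0.20 for adaptors, accessory proteins, kinases, transcription factors, negative regulators and other sensors, and 0.77 for the target genes. Some target genes passed the filter on the mean value only through the group where they were high.

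Other sensors of microbes were read for comparison. Of 14 tested, 9 were higher and 5 lower in LF/LCL, with a median log2 fold change of 0.16. TMEM173 (STING), the adaptor of cytosolic DNA sensing, had 269.7 and 319.4 normalized reads in LF/LCL against 221.5, 136.8 and 205.0 in SF/SCL cows, which is a log2 fold change of 0.67 ± 0.26 (limma adjusted p = 0.414). The cytosolic RNA sensors DDX58 (RIG-I) and IFIH1 (MDA5) had 5458 and 2518 in LF/LCL replicate 2, against ranges of 1317 to 1980 and 899.2 to 1090 over the other 4 libraries. TLR3, which also senses RNA, was only 1.16 times as high in LF/LCL replicate 2 as in replicate 1, where DDX58 was 3.49 times and IFIH1 2.52 times as high.

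TLR4 had the highest mean value of the 8 genes, and the genes with the most similar pattern over the 5 libraries were sought for it among 12909 tested genes with a symbol and a mean value of at least 20. By the mean absolute difference of centred log2 values the nearest were BTBD19 (0.035), GINS3 (0.050), CRISPLD1 (0.052), ALG6 (0.052) and LCK (0.055), a T cell kinase. The likeness rests on 5 libraries and is a description.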

How the data were processed

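Ampulla RNA of 5 cows was sequenced as polyA TruSeq libraries. Per the study's methods, the authors filtered reads with seqyClean, aligned them with TopHat2 2.0.8 and Bowtie2 2.1.0 to the masked Bos taurus UMD 3.1 assembly and counted unique, unambiguous reads per Ensembl gene with HTSeq 0.5.4p2. Whether strand was used is not given in the sources used here. The deposited signal is each count divided by a DESeq 1.12.1 size factor, in 3 decimals. All nonzero values (100% per library, within 0.01 reads or the rounding of the file) were whole multiples of 1 step per library, and the reads were recovered by dividing by it.

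Groups followed the labels. As the deposited values are normalized, limma 3.58.1 (R 4.3.3; trend and robust) was fitted to log2(value + 1) of the 15815 genes with a mean value over 5, two-sided, with Benjamini-Hochberg adjustment over all of them. Fold changes on this scale understate the change of low genes. On the recovered reads, edgeR 4.0.16 and DESeq2 1.42.0 were alternatives, beside other scalings, pseudocounts (0.5 and 5) and filters, and leaving out each library. The main limma fit and the edgeR and DESeq2 fits were tested on simulated data, with planted changes larger than those of the TLR genes. The other settings were not tested in this way. Each library came from another cow. The members and gene lists were chosen with earlier results of these data known. Named were all TLR genes, the complex partners CD14, MD2, UNC93B1 and MYD88, the 3 genes of each list with the smallest p, and the 5 genes most like TLR4. TICAM1, LBP, RELA, TNFAIP3, TNF and the marker gene IGJ were added for their roles after their values were seen, and other additions are stated where they stand. LY96 was matched through the name MD2 and CDH1 through E-CADHERIN after the table was seen. The gene table used for neighbours covers another assembly, so no coordinates or sequences are given. Confidence intervals are at 95%.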

Additional observations from a re-analysis of the deposited data

How the results depend on the processing

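No TLR gene had an adjusted p under 0.05 in any of the 15 alternatives, and the direction of TLR2, TLR3, TLR4 and TLR6 was the same in all 15. The count of TLR genes with an unadjusted p under 0.05, 3 in the report, ran from 1 to 2 when each library was left out and was 2 with library total scaling; the cause was not tested. DESeq2 called 457 genes over the whole table and 3 on the pathway lists, where limma called 0; the cause was not tested. Without trend and robust estimation 5 pathway genes had an unadjusted p under 0.05, in place of 8. TLR5 turned to 0.01 with edgeR and with DESeq2, and TLR10 to 0.35 with both and to 0.06 with a pseudocount of 5. When each library was left out, TLR5 ran from -0.78 to 0.52, TLR7 from -0.54 to 0.79, TLR9 from -1.07 to 1.95, TLR10 from -0.98 to 0.97 and UNC93B1 from -0.23 to 0.10. A fit that leaves 1 LF/LCL library assumes that it varies like SF/SCL. With a mean of at least 15, TLR9 and TLR10 were not tested. No division by coding length was made, as no lengths were used. No paired analysis was made, because the groups held different cows and the design has no pairs. TLR9 and TLR10 had few reads and also differed between the LF/LCL cows beyond counting.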
